A study of Mus musculus with 20 samples.

Results

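Genes of islet and gut peptide hormones were measured in medullary thymic epithelial cells (mTEC), the stromal cells of the thymus that display proteins of other organs to developing T cells. The genes were chosen by symbol, 10 of the 51810 genes in the deposited count table, namely Ins1, Ins2, Iapp, Gcg, Sst, Ppy, Pyy, Gast, Ghrl and Cck. The 12 libraries form 4 groups of 3, named by genotype and sorted cell type: cHyper mTEChi, WT mTEChi, cHyper mTEClo and WT mTEClo. The genotypes carry the labels Trp53-cHyper and Trp53-WT; the sources used here do not give what cHyper stands for, the promoter or cell type of any transgene, or the gates for mTEChi and mTEClo. All groups came from mice of 4 to 5 weeks, with no treatment named, and 75000 mTEC were sorted per sample from EpCAM-enriched stroma.

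The islets of the pancreas and the enteroendocrine cells of the gut make small peptide hormones as longer precursors, which prohormone convertases cut and secretory granules store. In the thymus the same genes belong to the tissue-restricted antigens that mTEC transcribe, and the transcriptional regulator Aire, abundant in mature mTEC, drives many of them. Thymic insulin, made mainly from Ins2 in the mouse, is a classical case of such an antigen. MHC class II and CD80 conventionally separate mTEChi, which hold the Aire-expressing cells, from mTEClo.

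Promoter windows are shown because 9 of the 10 hormone genes were higher in mTEChi than in mTEClo in each genotype, as described further on. The 9 genes were not the same in both genotypes. Whether promoter motifs relate to this difference was not tested. The windows come from RefSeq (GRCm38.p6, the assembly that mm10 names) and hold 250 bases before the annotated start and 50 after it. They matched 9 of the 10 genes with 13 starts; Ins2 was not matched. The letters TATAA are a core TATA box. They began 40 to 15 bases before the start, on the gene's strand, in 5 of the 13 windows. The share over 32851 RefSeq promoters was 3.79%. By gene, the 5 windows belong to 5 of the 9 genes. TATAA stood 27 bases before the start in Iapp, 24 in Gcg, 31 in Ppy, 27 in Pyy and 26 in Gast. The letters TGACGTCA, the cAMP response element for which the somatostatin promoter is known, were found in Sst alone among the 9, 48 bases before its start, and in 1.79% of all promoters on either strand. Capitals mark TATAA or, in Sst, TGACGTCA, and each window runs 5′ to 3′ on the gene's strand. Only windows with such marked letters are printed. Those of Ins1, Cck and Ghrl and of another start of Pyy had none and are left out.
Iapp (chr6:142298175-142298474, plus strand): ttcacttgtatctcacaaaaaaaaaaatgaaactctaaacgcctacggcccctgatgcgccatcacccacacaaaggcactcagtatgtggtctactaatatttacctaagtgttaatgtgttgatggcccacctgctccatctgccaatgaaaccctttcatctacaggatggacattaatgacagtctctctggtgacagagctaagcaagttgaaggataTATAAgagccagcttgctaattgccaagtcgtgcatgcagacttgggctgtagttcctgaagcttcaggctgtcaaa
Gcg (chr2:62483604-62483903, minus strand): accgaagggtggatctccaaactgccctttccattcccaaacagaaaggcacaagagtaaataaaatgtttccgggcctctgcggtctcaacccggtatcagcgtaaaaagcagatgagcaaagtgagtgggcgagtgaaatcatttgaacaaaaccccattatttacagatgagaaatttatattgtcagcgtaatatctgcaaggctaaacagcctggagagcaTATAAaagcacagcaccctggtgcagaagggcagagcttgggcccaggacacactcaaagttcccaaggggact
Sst (chr16:23890795-23891094, minus strand): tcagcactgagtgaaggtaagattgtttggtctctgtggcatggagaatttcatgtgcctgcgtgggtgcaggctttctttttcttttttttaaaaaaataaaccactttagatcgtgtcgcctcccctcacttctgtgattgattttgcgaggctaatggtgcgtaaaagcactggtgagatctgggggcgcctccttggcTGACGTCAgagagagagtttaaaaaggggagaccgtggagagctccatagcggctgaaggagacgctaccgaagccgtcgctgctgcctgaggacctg
Ppy (chr11:102101270-102101569, minus strand): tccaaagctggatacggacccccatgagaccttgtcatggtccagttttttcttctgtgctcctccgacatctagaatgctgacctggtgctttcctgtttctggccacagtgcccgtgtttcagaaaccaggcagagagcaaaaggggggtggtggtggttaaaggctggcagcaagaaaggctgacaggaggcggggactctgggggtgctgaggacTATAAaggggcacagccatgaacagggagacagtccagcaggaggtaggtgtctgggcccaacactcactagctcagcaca
Pyy (chr11:102107783-102108082, minus strand): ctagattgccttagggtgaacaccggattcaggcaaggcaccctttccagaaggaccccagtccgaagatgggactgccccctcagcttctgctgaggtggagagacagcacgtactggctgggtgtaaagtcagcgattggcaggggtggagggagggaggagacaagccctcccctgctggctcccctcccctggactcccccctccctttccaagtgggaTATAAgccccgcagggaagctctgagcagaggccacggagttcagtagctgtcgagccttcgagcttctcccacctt
Gast (chr11:100334157-100334456, plus strand): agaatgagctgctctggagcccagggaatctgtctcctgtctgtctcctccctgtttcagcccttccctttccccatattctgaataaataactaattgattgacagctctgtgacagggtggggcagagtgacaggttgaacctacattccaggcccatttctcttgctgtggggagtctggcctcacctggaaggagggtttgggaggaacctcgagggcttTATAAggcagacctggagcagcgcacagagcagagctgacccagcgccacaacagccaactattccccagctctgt
In the whole window on either strand, TATAA occurred in 8 of the 13 windows (7 of the 9 genes), against 24.9% of all promoters. The E-box CANNTG occurred in 12 of the 13 (8 genes), against 72.3%. The decamer of the p53 consensus occurred in 1 of the 9 genes, Pyy, whose 2 windows overlap and hold the same match, against 8.36% of all promoters. Windows of Ghrl overlap too, so the 13 windows are not separate promoters. CANNTG and TGACGTCA read the same on both strands. A match is a run of letters and not a measured binding site.

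The genes lie on 7 chromosomes, and Ppy and Pyy are neighbours on chromosome 11 on the same strand, 5357 bp apart. Their transcripts in the deposited table were short, 0.46 to 1.494 kb, against a median of 2.73 kb over the genes tested. Iapp (chromosome 6, 142298423 to 142303961) lies inside Slco1a5 on the opposite strand, with no exon in common. Ghrl (chromosome 6, 113716119 to 113719880) shares exon sequence with Gm26982 and Gm44033 on the opposite strand; the kit marked strand, but the strand setting of the counting is not given in the sources used here. The span of Ins2 in the table (chromosome 7, 142678656 to 142743381) held 26 exon intervals, some far from the insulin coding exons.

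Library totals were 22.02 to 25.31 M fragments in replicate 3 and 42.08 to 47.93 M in replicates 1 and 2. Replicate 3 of every group also had high Xist and 0 fragments of the Y-linked Ddx3y, so sex, depth and run scheme changed together with the replicate number, evenly over the groups. The list of 10 mTEC markers summed to 11400 to 14000 CPM (counts scaled to library size) across all groups, with no marker at 0, a sum held mostly by a few abundant genes. Single mTEC markers differed between the genotypes. In mTEClo, Aire and Ciita were called higher in cHyper and Cd80 lower, at 3.43 ± 0.665 CPM in cHyper and 7 ± 2.2 CPM in WT. In mTEChi the keratin genes Krt5 and Krt14 were called higher, 1.96-fold and 2.25-fold in cHyper (edgeR adjusted p = 0.0101 and 0.000215). Trp53 averaged 134 ± 4.65 CPM in cHyper mTEChi, 101 ± 4.6 CPM in WT mTEChi, 166 ± 11.6 CPM in cHyper mTEClo and 137 ± 0.958 CPM in WT mTEClo (SD, n = 3 each), a level of RNA that does not check the genotype. The labels do not state whether each replicate is its own animal or pool, and p-values cover this spread between libraries only.

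Length-normalized levels set the genes in order. In TPM, the authors' deposited measure scaled to transcript length and library size, the 10 genes summed to 368 ± 32.7 TPM in cHyper mTEChi, 459 ± 70.8 TPM in WT mTEChi, 25.6 ± 7.02 TPM in cHyper mTEClo and 52.9 ± 10.1 TPM in WT mTEClo (SD, n = 3 each). The 4 leading genes in both mTEChi groups were Pyy, Iapp, Sst and Ppy. In cHyper mTEChi Pyy led with 99.1 TPM, ahead of Iapp with 72.4 and Sst with 65.7, and the ranges of neighbours overlapped down to Sst. In WT mTEChi Iapp led with 113 TPM, ahead of Pyy with 99.2, Sst with 78.8 and Ppy with 77.8. The range of Sst lay below those of Iapp and Pyy, while Ppy, with 53.4 to 112 TPM, overlapped all 3. Ghrl and Ins1 were last in both, at 3.96 and 0.383 TPM in cHyper mTEChi, and 4.73 and 0.694 TPM in WT mTEChi.

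The order in mTEClo was another one. Cck led in cHyper mTEClo with 11 TPM, 43% of the summed level, and its range overlapped that of Iapp, which held 32.6%. In WT mTEClo Iapp led with 33.8 TPM, 63.9% of the sum, above the ranges of all other members, and Cck held 12.8%. No other member averaged more than 1.65 TPM in cHyper mTEClo, while Sst (6.05 TPM) and Ghrl (3.94 TPM) did so in WT mTEClo.

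**Figure D1:**
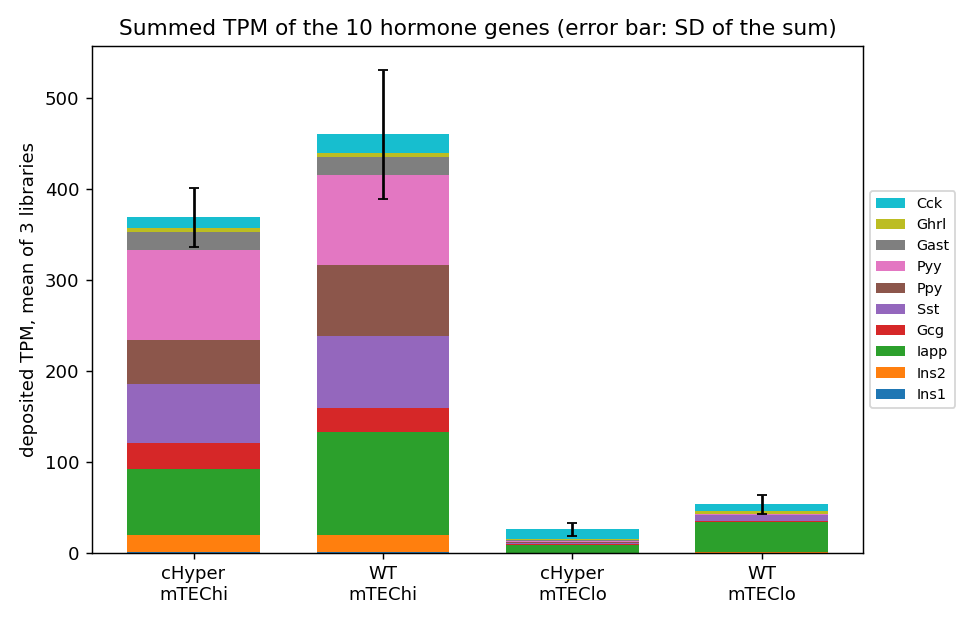
Stacked bars give the mean deposited TPM of each hormone gene over 3 libraries in each group, and error bars give the SD of the summed TPM. The sums are 368 and 459 TPM in cHyper and WT mTEChi and 25.6 and 52.9 TPM in cHyper and WT mTEClo, where Cck and Iapp hold most of the bar.

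The first comparison set mTEChi against mTEClo within each genotype. In cHyper cells 9 of the 10 hormone genes were higher in mTEChi and none was lower, against 38.7% of all genes tested called higher, 25.8% lower and 64.5% in either direction. In WT cells 9 of 10 were higher and none was lower, against 40.2% of all genes called higher, 29.4% lower and 69.5% in either direction. The groups did not overlap for 9 of the 10 genes in each genotype, against 68.7% of all genes in cHyper cells and 73.3% in WT cells. The gene not called was Cck in cHyper cells and Ghrl in WT cells. All 10 genes passed the filter on low counts. For 6 of them (Ins1, Ins2, Gcg, Ppy, Pyy and Gast) only an mTEChi group reached its limit in all 3 libraries. In mTEClo, Ins1 and Gast reached it in 0 libraries, Ins2 in 1, Ppy in 2, Pyy in 3 and Gcg in 4. The count of genes higher in mTEChi is thus partly set by the filter. The median log2 difference of the 10 genes, with groups at 0 set to a floor of 3 fragments, was 5.39 in cHyper cells and 4.2 in WT cells, against 0.13 and 0.12 over all genes tested.

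Among the islet hormones, the insulin genes were nearly silent in mTEClo. Ins2, the mouse insulin gene that is also expressed outside the islet, had 8.42, 10.1 and 14.2 CPM in the cHyper mTEChi libraries, against 0.0228, 0.115 and 0.0407 CPM in cHyper mTEClo. In WT cells it had 7.49, 10.3 and 12.6 CPM in mTEChi, against 0.0236, 0 and 0.234 CPM in mTEClo. The cell types did not overlap in either genotype. Ins2 was 165-fold higher in mTEChi in both genotypes (edgeR adjusted p = 2.66e-08 in cHyper cells and 2.62e-08 in WT cells), a ratio that rests on 7 fragments in cHyper mTEClo and 6 in WT mTEClo and is not precise. On the log2 scale the Ins2 difference was 7.37 in each genotype. It was 8.37 in cHyper cells without cHyper mTEClo replicate 2, and in WT cells 6.65 and 9.41 without WT mTEClo replicates 2 and 3.

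Ins1, the second insulin gene of mice, was detected in mTEChi alone. It had 8, 10 and 3 fragments in cHyper mTEChi and 15, 12 and 9 in WT mTEChi, and 0 in all 6 mTEClo libraries. A count of 0 over 3 libraries allows up to 0.0268 CPM in cHyper mTEClo and 0.0281 CPM in WT mTEClo, with counting error only. Against that floor Ins1 was at least 6.91-fold higher in mTEChi in cHyper cells and at least 10.6-fold higher in WT cells.

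Gcg, the precursor of glucagon in islet alpha cells and of GLP-1 in the gut, had 17.5, 17.6 and 20.1 CPM in cHyper mTEChi, against 0.32, 0.207 and 0.488 CPM in cHyper mTEClo. In WT cells it had 14.8, 14 and 20.3 CPM in mTEChi, against 0.165, 0.578 and 1.27 CPM in mTEClo. The 2 cell types were far apart in both genotypes, 57.2-fold in cHyper cells and 27.6-fold in WT cells (edgeR adjusted p = 2.84e-08 and 8.48e-08). Sst, the inhibitory hormone somatostatin of islet delta cells and gut D cells, had 17.9 to 24.2 CPM in cHyper mTEChi, against 0.0228 to 1.18 CPM in cHyper mTEClo, and was 42.3-fold higher (edgeR adjusted p = 3.76e-06). In WT cells Sst had 21.1 to 26.6 CPM in mTEChi, against 0.972 to 4.22 CPM in mTEClo, and was 12.3-fold higher (edgeR adjusted p = 3.89e-05). Ppy, pancreatic polypeptide, was 41.6-fold higher in mTEChi in cHyper cells and 186-fold higher in WT cells, with 27 fragments in cHyper mTEClo and 9 in WT mTEClo behind the ratios (edgeR adjusted p = 1.3e-06 and 1.46e-07). The size of these ratios also depended on single mTEClo libraries. In cHyper cells the log2 difference of Sst was 5.4, or 4.74 and 6.34 without cHyper mTEClo replicates 1 and 3, and that of Ppy was 5.38, or 4.69 without replicate 1. In WT cells that of Sst was 3.62, or 4.54 without WT mTEClo replicate 3, that of Gcg was 4.79, or 5.44 without the same library, and that of Ppy was 7.54, or 8.86 without replicate 2.

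The gut hormones Pyy and Gast were also higher in mTEChi. Pyy, peptide YY of the L cells of ileum and colon, had 20.5, 33.6 and 28 CPM in cHyper mTEChi, against 0.114, 0 and 1.14 CPM in cHyper mTEClo, an 85.1-fold difference (edgeR adjusted p = 8.01e-07). In WT cells it had 22.3, 23.5 and 31.2 CPM in mTEChi, against 0.0472, 0.278 and 0.516 CPM in mTEClo, a 105-fold difference (edgeR adjusted p = 5.88e-07). No mTEClo library came near the lowest mTEChi one, but the size of the ratio depended on single libraries. The log2 difference of Pyy was 6.41 in cHyper cells, or 5.7 and 8.82 without cHyper mTEClo replicates 2 and 3, and 6.72 in WT cells, or 6.12 without WT mTEClo replicate 1. Gast, which encodes gastrin and drives gastric acid secretion, had 3.41 to 4.56 CPM in cHyper mTEChi and 3.05 to 4.13 CPM in WT mTEChi. It had 7 fragments in all in cHyper mTEClo and 0 in WT mTEClo, so that it was 60.5-fold higher in mTEChi in cHyper cells and at least 132-fold higher in WT cells. In cHyper cells the log2 difference of Gast was 5.92, or 5.25 and 6.91 without cHyper mTEClo replicates 1 and 2.

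Iapp, Ghrl and Cck were the members with a clear level in mTEClo, together with Sst in some libraries. Iapp, islet amyloid polypeptide, which beta cells secrete together with insulin, was 7.89-fold higher in mTEChi than in mTEClo in cHyper cells and 2.94-fold higher in WT cells (edgeR adjusted p = 6.24e-09 and 1.83e-06). Ghrl, the precursor of ghrelin from the stomach, was 3.41-fold higher in mTEChi in cHyper cells (log2 1.77, SE 0.4, edgeR adjusted p = 0.00137). In WT cells its difference was log2 0.09 (SE 0.36, edgeR adjusted p = 0.834), with overlapping groups. Cck, cholecystokinin of the duodenal I cells, was 2.56-fold higher in mTEChi in WT cells (log2 1.36, SE 0.26, edgeR adjusted p = 0.000326). In cHyper cells it differed by log2 -0.01 (edgeR adjusted p = 0.965), with a sign that turned with the scaling.

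**Figure D2:**
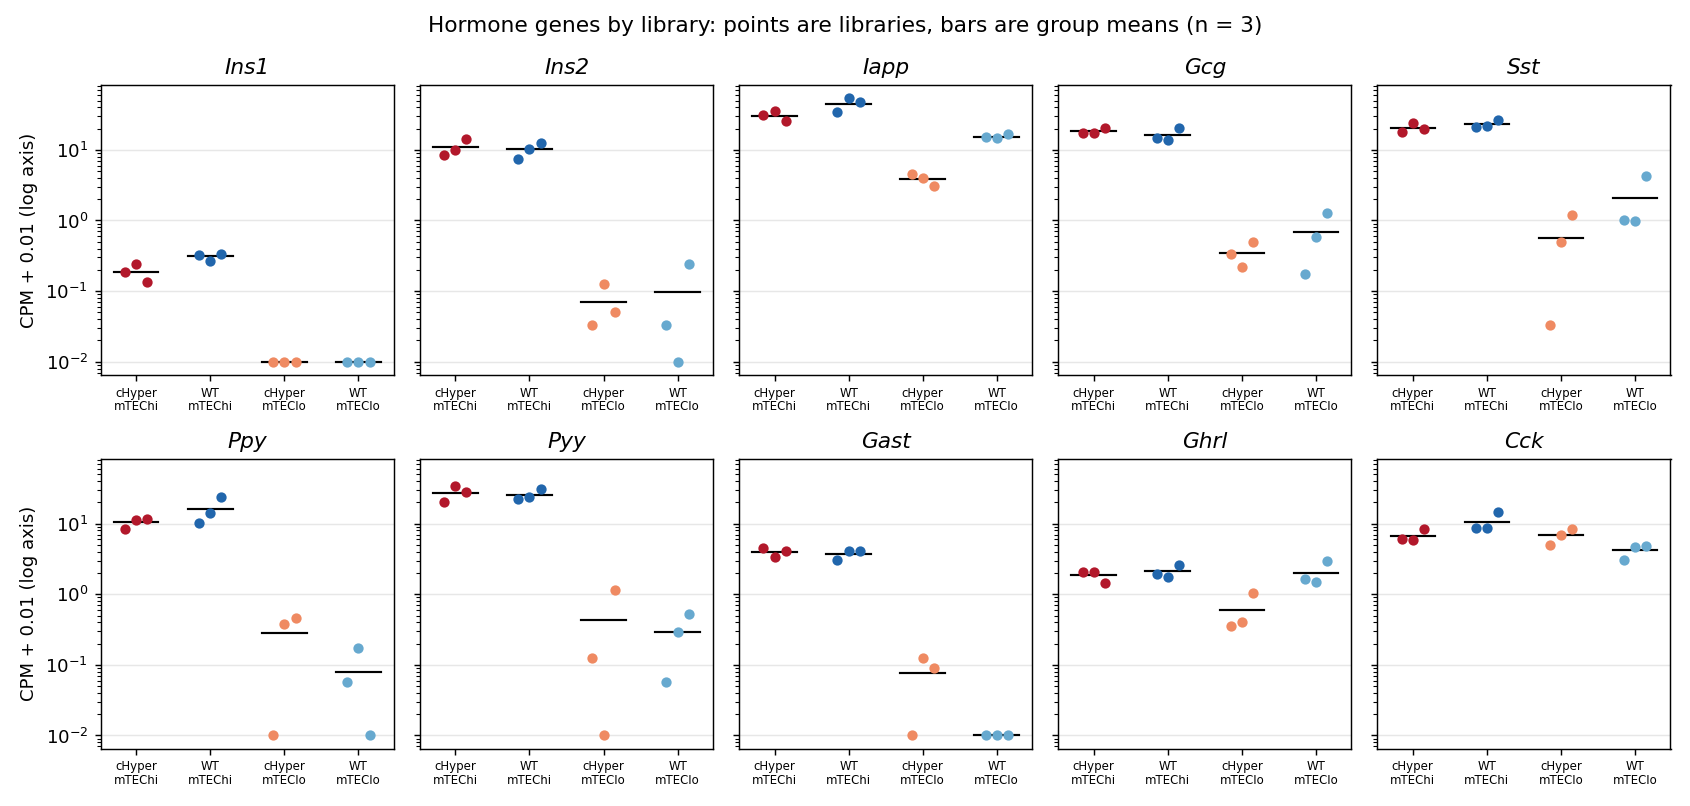
Each panel gives 1 hormone gene, with a point per library and a bar at the mean of 3, as CPM plus 0.01 on a log axis, for cHyper mTEChi, WT mTEChi, cHyper mTEClo and WT mTEClo. Ins1 lies at 0 in all 6 mTEClo libraries, Iapp in cHyper mTEClo lies below WT mTEClo with no overlap, and Cck is the one panel where cHyper mTEClo and cHyper mTEChi lie at the same height.

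Markers of other cells also differed between the cell types. The 10 myeloid and dendritic markers summed to 506 to 565 CPM in cHyper mTEChi and 515 to 689 CPM in WT mTEChi, against 28.7 to 46.4 CPM in cHyper mTEClo and 29.3 to 33.4 CPM in WT mTEClo, and 10 of 10 were called higher in mTEChi in both genotypes. Lyz2 made up most of that sum. The 5 B cell markers were also called higher in mTEChi, 5 of 5 in both genotypes. Of all genes tested 38.7% were called higher in cHyper cells and 40.2% in WT cells. Endothelial markers were called higher in 4 of 4 tested and thyroid markers in 4 of 5, in both genotypes. Thymocyte markers were higher in 4 and 8 of 10 and erythroid markers in 4 and 3 of 5, in cHyper and WT cells. Fibroblast markers split, 3 higher and 3 lower of 7 in cHyper cells and 2 and 2 in WT cells. Cortical markers split too, 3 and 3 of 6 and 3 and 2. The 7 exocrine pancreas markers summed to 29.5 to 39.5 CPM in cHyper mTEChi and 32.7 to 45.8 CPM in WT mTEChi, against 1.8 to 2.52 CPM in cHyper mTEClo and 1.65 to 5.3 CPM in WT mTEClo. Of these Cpa1 was at 0 in both mTEClo groups and Pnlip and Amy2a5 in WT mTEClo. Their part in the hormone differences was not tested, and in these bulk libraries more cells that express a gene and more RNA per cell cannot be told apart.

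Low counts in mTEClo came with wide spread between libraries. The highest library exceeded the lowest by 1.15 to 1.87 times for the 10 genes in cHyper mTEChi and by 1.25 to 2.34 times in WT mTEChi. In mTEClo, Sst spanned 51.7 times among cHyper libraries, where 1 library held 1 fragment, and Pyy spanned 10.9 times among WT libraries. Iapp spanned 1.45 times in cHyper mTEClo and 1.13 times in WT mTEClo.

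The second comparison asked what cHyper changed in mTEClo. Of the 10 hormone genes 2 were lower in cHyper, Iapp and Ghrl, against 4.64% of all genes tested called lower, and none was higher, against 4.53% (9.16% in either direction). The groups did not overlap for 3 of the 10 genes (Iapp, Ghrl and Cck), against 24.4% of all genes. At an unadjusted p under 0.05, 5 members passed. The share of all genes at that limit is not given here. This count and the later ones at an unadjusted p therefore cannot be read against a background. The median log2 change of 9 members, leaving out Ins1 and with Gast at its floor, was 0.1, against 0.02 over all genes.

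Iapp had 4.48, 3.97 and 3.09 CPM in cHyper mTEClo, against 15, 14.6 and 16.6 CPM in WT mTEClo. Every cHyper library was below every WT library, and the spread within each group was small beside the gap. Iapp fell 3.95-fold in cHyper (log2 -1.98, SE 0.19, edgeR adjusted p = 1.07e-05), with 445 fragments in cHyper and 1622 in WT behind the ratio. Slco1a5, the gene around Iapp, had 145, 175 and 102 fragments in cHyper mTEClo and 170, 283 and 80 in WT mTEClo, which overlapped.

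Ghrl had 0.343, 0.391 and 1.02 CPM in cHyper mTEClo, against 1.61, 1.48 and 2.91 CPM in WT mTEClo. The groups did not overlap, and in both of them replicate 3 was the highest. Ghrl fell 3.56-fold (log2 -1.83, SE 0.41, edgeR adjusted p = 0.0104), on 57 fragments in cHyper and 194 in WT. The call ended without cHyper mTEClo replicate 2 (log2 -1.61, edgeR adjusted p = 0.0545). Of the genes that share its exon sequence, Gm44033 had 8, 9 and 8 fragments in cHyper mTEClo and 16, 25 and 10 in WT mTEClo, and Gm26982 had 135, 111 and 47 in cHyper and 119, 90 and 79 in WT. Reads of these genes and of Ghrl may not have been told apart.

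Cck lay on the other side. It had 5.05, 6.85 and 8.51 CPM in cHyper mTEClo, against 3.07, 4.7 and 4.74 CPM in WT mTEClo, with no overlap. Its log2 difference was 0.71 (SE 0.26, edgeR adjusted p = 0.117), which passed with the replicate number as a block (log2 0.69, edgeR adjusted p = 0.0158). Sst had 0.0228, 0.483 and 1.18 CPM in cHyper mTEClo, against 1.02, 0.972 and 4.22 CPM in WT mTEClo. Its groups overlapped through replicate 3 of cHyper, and its log2 difference was -1.95 (SE 0.69, edgeR adjusted p = 0.0986). Sst passed without that library (log2 -2.87, edgeR adjusted p = 0.0288).

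The other members were not called in mTEClo. Gcg differed by log2 -0.88 (SE 0.53), Ppy by 1.54 (SE 0.99) and Pyy by 0.4 (SE 0.98), with edgeR adjusted p of 0.351, 0.384 and 0.874. Gast had 0, 5 and 2 fragments in cHyper mTEClo and 0 in each WT mTEClo library, and Ins2 had 7 fragments in cHyper and 6 in WT. No difference of Gast or Ins2 was detectable at this depth.

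Some markers of other cells also differed between the genotypes in mTEClo. Of 7 fibroblast markers 2 were called higher and 1 lower, against 9.16% of all genes called, while their sum was 162 to 228 CPM in cHyper mTEClo and 149 to 171 CPM in WT mTEClo, with none at 0. Dpt, an extracellular matrix protein gene, averaged 10.1 ± 4.31 CPM in cHyper and 1.7 ± 0.439 CPM in WT (SD, n = 3 each), and the collagen gene Col3a1 averaged 68.4 ± 28.7 CPM in cHyper and 24 ± 2.93 CPM in WT. Pdgfra, a growth factor receptor gene, went the other way, with 0.883 ± 0.376 CPM in cHyper and 2.73 ± 0.0941 CPM in WT. The 5 erythroid markers summed to 4.4 to 9.67 CPM in cHyper mTEClo and 12.5 to 20.7 CPM in WT mTEClo, with no overlap. Of the 5, 2 were called lower (Hbb-bs and Hbb-bt), and none was at 0 in either group. These 2 genes held most of the sum. Hba-a1 (log2 0.68) and Hba-a2 (log2 0.54) went the other way and Alas2 differed by log2 -0.17, all without a call. The 10 thymocyte markers summed to 21.3 to 43.4 CPM in cHyper and 11.4 to 27.7 CPM in WT, with 0 of 10 called. Among the other lists 1 marker each of cortical epithelium (Tbata, higher), myeloid cells (C1qb, lower) and thyroid (Tshr, higher) was called, and none of B cells, endothelium, exocrine pancreas or parathyroid. The part of any of them in the changes of Iapp and Ghrl was not tested.

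The third comparison asked the same in mTEChi. None of the 10 hormone genes was called by edgeR, against 1.98% of all genes tested called, 1.56% higher and 0.418% lower, and 2 (Iapp and Cck) had an unadjusted p under 0.05. DESeq2 called 1, Iapp, and limma-voom called 0. The groups did not overlap for 2 of the 10 genes (Ins1 and Cck), against 25.7% of all genes. The median log2 difference of the members was -0.16, against 0 over all genes. Of the 10 myeloid and dendritic markers 1 was called between the genotypes, Adgre1, 1.78-fold lower in cHyper mTEChi (edgeR adjusted p = 0.0332). No tested marker of the other lists outside mTEC was called in mTEChi. The part of such cells in the hormone levels was not tested.

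Iapp had 31.2, 35.4 and 25.3 CPM in cHyper mTEChi, against 34.2, 54.1 and 47.2 CPM in WT mTEChi. The groups overlapped through 1 library of each, and the difference was log2 -0.56 (SE 0.17, edgeR adjusted p = 0.127, DESeq2 adjusted p = 0.0209). It passed in edgeR without WT mTEChi replicate 1 (log2 -0.76, adjusted p = 0.0344). Cck had 5.99, 5.79 and 8.43 CPM in cHyper mTEChi, against 8.72, 8.78 and 14.5 CPM in WT mTEChi, with no overlap by a narrow margin. The log2 difference of Cck was -0.67 (SE 0.26, edgeR adjusted p = 0.235), which passed with the replicate block (log2 -0.64, edgeR adjusted p = 0.0407).

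Neither insulin gene was called between the genotypes in mTEChi. Ins2 averaged 10.9 ± 2.96 CPM in cHyper mTEChi and 10.1 ± 2.57 CPM in WT mTEChi (SD, n = 3 each), a log2 difference of 0.1 (SE 0.32, edgeR adjusted p = 0.916). The Ins2 groups overlapped. Ins1 had 0.123 to 0.23 CPM in cHyper mTEChi and 0.26 to 0.325 CPM in WT mTEChi, with no overlap, on 21 fragments in cHyper and 36 in WT, a log2 difference of -0.71 (SE 0.53, edgeR adjusted p = 0.567). The log2 differences of Gcg, Sst, Pyy, Gast and Ghrl ran from -0.17 to 0.17, with SE from 0.31 to 0.47. Ppy differed by log2 -0.62 (SE 0.41, edgeR adjusted p = 0.502), with 1 WT library at 24.1 CPM above the other WT libraries at 10.3 and 14 CPM.

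**Figure D3:**
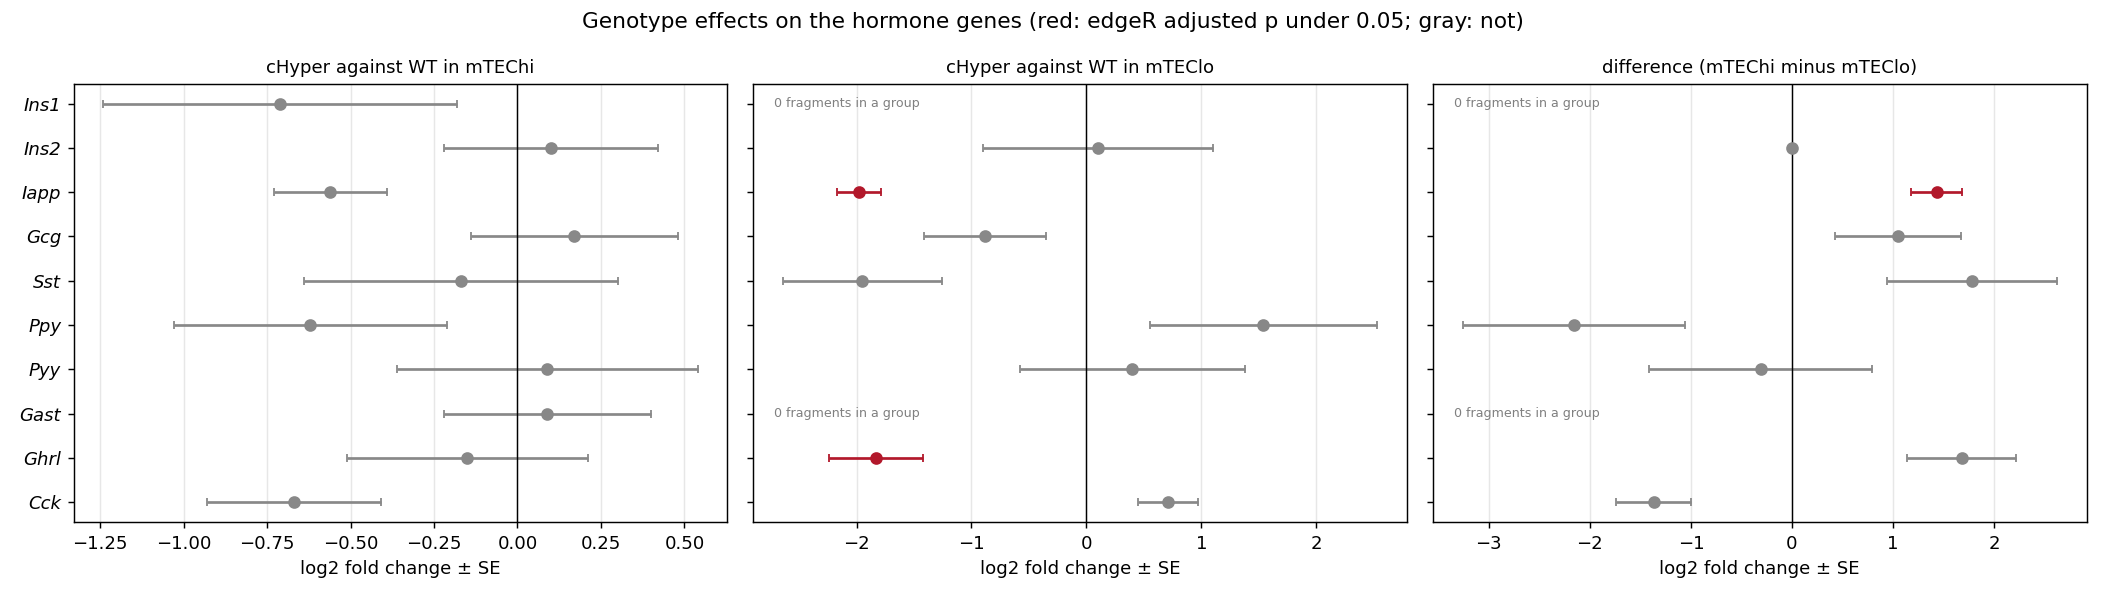
Points give the log2 fold change of cHyper against WT in mTEChi and in mTEClo and the difference between these effects for each hormone gene, with bars of 1 SE and red for an edgeR adjusted p under 0.05. Genes with a group at 0 fragments have no point, and a difference near 0 has no bar. Iapp is red in mTEClo and in the difference and Ghrl in mTEClo.

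The same fit tested whether cHyper acted differently in the cell types, as its effect in mTEChi minus that in mTEClo. This difference was called for 1 hormone gene, Iapp, which was positive, against 1.13% of all genes tested called positive, 0.926% called negative and 2.06% in either direction. For Iapp the effect was log2 -0.56 in mTEChi and -1.98 in mTEClo, a difference of 1.43 (SE 0.25, edgeR adjusted p = 0.00881). Ghrl differed by 1.68 (SE 0.54, edgeR adjusted p = 0.144) and passed without cHyper mTEClo replicate 3 (2.25, edgeR adjusted p = 0.029). Cck differed the other way, by -1.37 (SE 0.37, edgeR adjusted p = 0.0743), and passed with the replicate block (-1.33, edgeR adjusted p = 0.007), in DESeq2 (adjusted p = 0.00796) and without cHyper mTEClo replicate 1 (edgeR adjusted p = 0.0446). The other members did not pass, and Ins1 and Gast had a group at 0.

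Pearson correlations of log2(CPM + 0.5) over the 12 libraries describe which genes varied together; all libraries share the contrast of the cell types. Ins2 correlated with Gcg at 0.989, with Pyy at 0.984 and with Gast at 0.992. Ghrl and Cck stood apart, with r = 0.152 between them, and Iapp had r = 0.797 with Ghrl and 0.309 with Cck. Among 16061 genes averaging 1 CPM or more, those most like Ins2 were Il9, Oxt and Comp (r = 0.997 each), and those most like Gast were Csn1s2a, Dppa3 and Cxcr5 (0.998 each). The genes most like Iapp were Unc93b1 (0.979), Rab44 and Adgrb1 (0.977 each). Ghrl was most like Mroh1 (0.959) and Cck was most like Sfrp5 (0.925), the lowest top value among the 10.

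Other peptides of gut and islet were read from a list of 20. Of these 19 were higher in mTEChi in cHyper cells and 18 in WT cells, and none was lower, against 38.7% of all genes called higher in cHyper cells and 40.2% in WT cells. The median log2 difference, with groups at 0 set to the floor, was 4.39 in cHyper cells and 4.71 in WT cells, against 0.13 and 0.12 over all genes. Genes that passed the filter only through mTEChi were selected for a higher level there, such as Gip, with at most 4 fragments in any mTEClo library. How many of the 20 passed only that way was not counted. The counts and medians of this list and of those that follow can thus be partly set by the filter. The incretin gene Gip averaged 23.1 ± 1.57 CPM in cHyper mTEChi and 0.0771 ± 0.0817 CPM in cHyper mTEClo, and neurotensin (Nts) averaged 89.5 ± 14.8 CPM in cHyper mTEChi and 0.844 ± 0.555 CPM in cHyper mTEClo (SD, n = 3 each). In mTEClo, 2 of 20 were higher in cHyper and 1 was lower, against 9.16% of all genes called in either direction. The enkephalin precursor Penk had 12.6, 14.1 and 20.6 CPM in cHyper mTEClo, against 7.01, 7.13 and 6.7 CPM in WT mTEClo (2.25-fold higher, edgeR adjusted p = 0.000765). Gastrin-releasing peptide (Grp) had 131, 112 and 42.9 CPM in cHyper mTEClo, against 29, 38.8 and 14 CPM in WT mTEClo (3.48-fold higher, edgeR adjusted p = 0.00549). Replicate 3 was the lowest library of Grp in both groups, and the groups did not overlap. Nucb2, the precursor of nesfatin, fell 1.89-fold in cHyper mTEClo (edgeR adjusted p = 0.000849). In mTEChi 0 of 20 were called between the genotypes by edgeR, near the 1.98% of all genes called, with 6 at an unadjusted p under 0.05.

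Receptors of these hormones were also higher in mTEChi in most cases. Of 21 receptor genes tested of 22, 18 were higher in mTEChi in cHyper cells and 18 in WT cells, and 2 and 1 were lower. Of all genes 38.7% and 40.2% were called higher and 25.8% and 29.4% lower in cHyper and WT cells. The calcitonin receptor Calcr, which forms amylin receptors with RAMP proteins, averaged 13.3 ± 0.861 CPM in cHyper mTEChi, against 0.1 ± 0.0877 CPM in cHyper mTEClo (SD, n = 3 each). The glucagon receptor Gcgr was at least 224-fold higher in mTEChi in WT cells, with 0 fragments in WT mTEClo. Calcr and Gcgr also passed the filter only through mTEChi. The somatostatin receptor Sstr2 fell in mTEChi in both genotypes, 3.69-fold in cHyper cells and 4.21-fold in WT cells (edgeR adjusted p = 2.62e-05 and 9.09e-06). Between the genotypes in mTEClo 1 of 21 was called, a share below the 9.16% of all genes, namely Npy1r, a receptor for neuropeptide Y and peptide YY, 2.21-fold higher in cHyper (edgeR adjusted p = 0.0311). The call of Npy1r ended without cHyper mTEClo replicate 1 or 2 or WT mTEClo replicate 2 or 3 (edgeR adjusted p up to 0.113), in replicates 1 and 2 only (0.136) and with only the 2 groups in the fit (0.0531). Its log2 difference was 1.14, or 1.75 without WT mTEClo replicate 1.

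The machinery that cuts prohormones was mixed. Of 12 processing genes 8 were higher and 3 lower in mTEChi in each genotype, against 64.5% of all genes called in either direction in cHyper cells and 69.5% in WT cells. The dipeptidyl peptidase gene Dpp4, whose product inactivates GLP-1 and GIP, was 12.9-fold higher in mTEChi in cHyper cells and 21.9-fold higher in WT cells (edgeR adjusted p = 1.31e-09 and 2.09e-10). Scg5, the chaperone of the convertase PC2, was lower in mTEChi. Pcsk1, the convertase PC1/3 that cuts proinsulin and yields GLP-1, had 0.594, 0.597 and 0.977 CPM in cHyper mTEClo, against 2.2, 1.32 and 1.73 CPM in WT mTEClo. The groups did not overlap, and Pcsk1 fell 2.5-fold in cHyper mTEClo (log2 -1.32, SE 0.27, edgeR adjusted p = 0.00565). It was the 1 processing gene of 12 called there, a share near the 9.16% of all genes.

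Genes of the secretory granule fell in cHyper mTEClo in 3 of 11 cases, against 4.64% of all genes called lower, and none rose, against 4.53%. The median log2 change of the 11 was -0.84, against 0.02 over all genes tested. The granin Chgb had 1.85, 1.75 and 5.37 CPM in cHyper mTEClo, against 14.4, 6.85 and 21.2 CPM in WT mTEClo, and fell 4.9-fold (log2 -2.29, edgeR adjusted p = 0.00317; log2 -2.96 without cHyper mTEClo replicate 3). Scg2, secretogranin II, had 1.71, 1.59 and 2.77 CPM in cHyper mTEClo, against 9.3, 4.77 and 7.69 CPM in WT mTEClo, and fell 3.67-fold (edgeR adjusted p = 0.000279). The granule membrane protein gene Ptprn2 fell 2.14-fold (edgeR adjusted p = 0.0102), and the groups of all 3 genes did not overlap. Chga, chromogranin A, averaged 65.4 ± 34.9 CPM in cHyper mTEClo and 44.4 ± 12.8 CPM in WT mTEClo (SD, n = 3 each; edgeR adjusted p = 0.289). In mTEChi 0 of 11 were called between the genotypes by edgeR, near the 1.98% of all genes called, and 0 had an unadjusted p under 0.05. Against mTEClo, 10 of 11 were higher in mTEChi in each genotype, against 38.7% of all genes in cHyper cells and 40.2% in WT cells, led by Vgf.

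**Figure D4:**
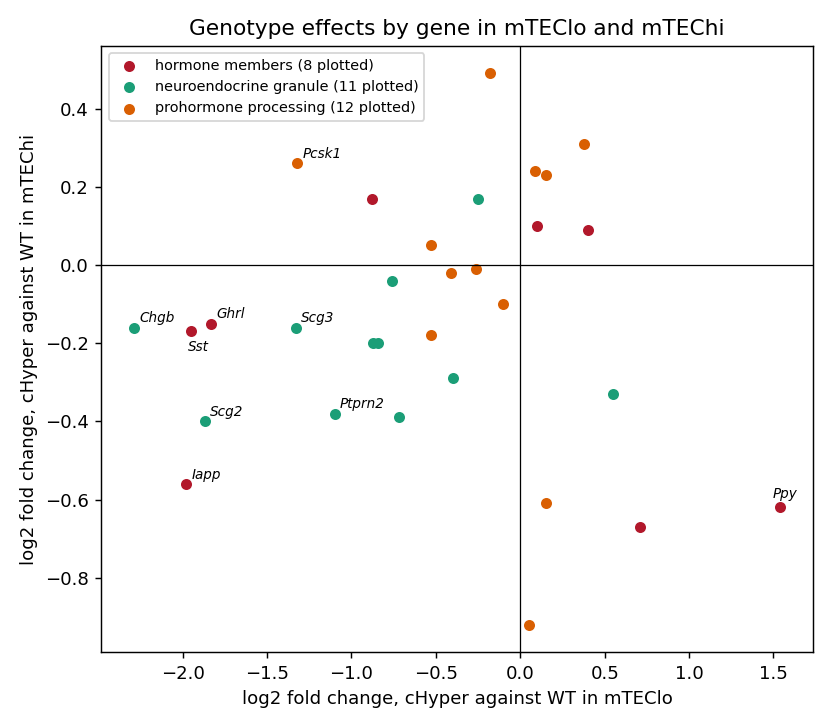
Each point is 1 gene, with the log2 fold change of cHyper against WT in mTEClo on the x axis and in mTEChi on the y axis, for 8 hormone genes without a group at 0, 11 granule genes and 12 processing genes. Chgb, Scg2, Iapp, Sst and Ghrl lie farthest to the left, between -2.29 and -1.83 in mTEClo, and within -0.56 to -0.15 in mTEChi.

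Transcription factors of islet and enteroendocrine lineages were largely higher in mTEChi, 18 of 23 in cHyper cells and 17 of 23 in WT cells, with 3 and 4 lower. Of all genes 38.7% and 40.2% were called higher and 25.8% and 29.4% lower in cHyper and WT cells. Insm1, a zinc finger factor of endocrine differentiation, averaged 238 ± 18.3 CPM in cHyper mTEChi, against 18.6 ± 4.13 CPM in cHyper mTEClo (SD, n = 3 each). Isl1, a LIM-homeodomain factor of islet cells, went the other way, with 22.3 ± 3.48 CPM in cHyper mTEChi, against 71.9 ± 2.65 CPM in cHyper mTEClo. Mafa, a beta cell activator of insulin genes, was also lower in mTEChi, 3.07-fold in cHyper cells and 2.19-fold in WT cells (edgeR adjusted p = 2.62e-05 and 0.00049). In mTEClo, St18 was 1.92-fold lower in cHyper (edgeR adjusted p = 0.00503, or 0.0515 in replicates 1 and 2 only). No factor of the 23 was called between the genotypes in mTEChi by edgeR, near the 1.98% of all genes called, with 3 at an unadjusted p under 0.05.

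Aire, the regulator of tissue-restricted antigens, had 38.6, 51.4 and 43.5 CPM in cHyper mTEClo, against 11.3, 16.1 and 15.4 CPM in WT mTEClo. It was 3.12-fold higher in cHyper mTEClo (log2 1.64, SE 0.17, edgeR adjusted p = 2.39e-05), where Iapp and Ghrl were lower. In mTEChi Aire averaged 1640 ± 321 CPM in cHyper and 1920 ± 2.82 CPM in WT (SD, n = 3 each; edgeR adjusted p = 0.548). Fezf2, a second regulator of such antigens in mTEC, averaged 139 ± 29.3 CPM in cHyper mTEClo and 156 ± 5.21 CPM in WT mTEClo, and 445 ± 33.4 CPM in cHyper mTEChi and 468 ± 57.1 CPM in WT mTEChi (SD, n = 3 each).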

How the data were processed

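Bulk RNA-seq was measured in 12 libraries of sorted mouse mTEC. The authors deposited fragment counts per gene, TPM and gene lengths in 1 table of 51810 genes; the 20 labelled samples include 2 runs each of replicates 1 and 2, which the table gives as 1 column each. They used build mm10, TopHat2 2.1.1 and SAMtools 1.9, with featureCounts (Subread 2.0.1), per the submitters' processing notes. The sources used here do not give the annotation release, strand setting or filters. The test on the counts was that of edgeR 4.0.16 under R 4.3.3 (TMM, filterByExpr by group with a minimum count of 10, quasi-likelihood F test) in 1 fit of all 12 libraries with 8 residual degrees of freedom. The filter left 28932 genes, and a Benjamini-Hochberg adjusted p under 0.05 over all of them was a call. CPM are on the TMM scale; fold changes are fitted. The deposited TPM entered no test. Ratios against a group at 0 used a floor of 3 fragments over the group, which covers counting error only. An SE is not given for a group at 0 or a log2 difference under 0.05. DESeq2 1.42.0, limma-voom (limma 3.58.1), other scalings and filters, a replicate block and omitted libraries were alternatives. Depth per library was 22.02 to 47.93 M fragments.

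The main fit did not pair samples. The replicate block matched them by the replicate number in their labels, which do not state what samples with the same number share. Deviations of same-numbered libraries from their group means correlated at 0.221 to 0.462 over 20922 genes in each comparison. That was above the preset limit for pairing, so the blocked value stands beside a result whose call it changed. All other values, the list counts and the shares over all genes come from the fit without the block. With the block, the genes called between the genotypes rose from 2651 to 3916 in mTEClo and from 572 to 1250 in mTEChi. The related lists were not counted with the block.

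The members and the 6 related lists of 90 genes were chosen with earlier results of these data known. From each list, up to 4 called genes with the smallest p per comparison, Aire, Fezf2 and Trp53 were named by rule; Sstr2, Mafa, Chga, Lyz2 and the called markers were chosen after their values were seen. A gene of the transcription factor list that the rule names is not reported here. Likeness is Pearson r of log2(CPM + 0.5). The scripts were tested on simulated counts. Promoter windows are those of RefSeq, and a motif search used exact letters.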

Additional observations from a re-analysis of the deposited data

Results flagged for a closer look

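The effect of cHyper differed between the cell types for 5 of the genes reported here, by a test of the difference (mTEChi minus mTEClo) over all genes in edgeR. For Iapp the difference was 1.43 on the log2 scale, with edgeR adjusted p from 0.00956 to 0.0282 when each library was left out. Over the alternative fits in edgeR, DESeq2 and limma-voom its adjusted p reached 0.049, close to the limit of 0.05.

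Scg2 differed by 1.48 (edgeR adjusted p = 0.0372) and Pcsk1 by 1.58 (edgeR adjusted p = 0.0276). Both fell in cHyper mTEClo and stood at log2 -0.4 and 0.26 in mTEChi, where neither was called. Without single libraries the edgeR adjusted p reached 0.109 for Scg2 and 0.078 for Pcsk1. The call of Scg2 was lost without 10 of the 12 libraries in turn (all but WT mTEClo replicate 2 and cHyper mTEClo replicate 3), and that of Pcsk1 without 8 (all but cHyper mTEClo replicate 3, WT mTEClo replicates 2 and 3 and cHyper mTEChi replicate 3).

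Penk differed by -1.17 (edgeR adjusted p = 0.0244) and Aire by -1.87 (edgeR adjusted p = 0.000941). Both were higher in cHyper mTEClo and were not called in mTEChi. The call of Penk was lost without WT mTEClo replicate 1, any cHyper mTEChi library or WT mTEChi replicate 3 (edgeR adjusted p up to 0.0716). In replicates 1 and 2 only, none of Scg2, Pcsk1 and Penk was called for the difference (edgeR adjusted p of 0.0588, 0.0569 and 0.0801). Scg2 was also lost with DESeq2 size factors (0.0503) and library totals (0.0571), and Pcsk1 in limma-voom (adjusted p = 0.0512). No cause of these differences was tested.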

How the results depend on the processing

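In all alternatives and with each library left out, Iapp stayed lower in cHyper mTEClo (log2 -2.1 to -1.83). The difference between its effects also stayed called, narrowly in the alternative fit with the largest adjusted p. Counts of called members with 1 library left out ran from 1 to 3 in mTEClo and 0 to 1 in mTEChi between the genotypes, 9 to 9 between the cell types in each genotype, and 1 to 2 for the difference of effects. In mTEChi 1 member was called in DESeq2 (Iapp) and 1 with the replicate block (Cck). The difference was called for 2 with no filter, in DESeq2 and with the block (Cck added) and for 2 in replicates 1 and 2 only (Ghrl added). The block changed no other member's call. With at least 1 CPM in 3 libraries Ins1 was not tested, and 8 members were called between the cell types in each genotype. Sst passed in mTEClo with no filter (edgeR adjusted p = 0.00441).

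Directions turned for members that were not called. Cck between the cell types in cHyper moved to 0.03 with DESeq2 size factors and in DESeq2, and to 0.14 with library totals. The Ins2 difference of effects was 0.01 with no filter, and Ins2 in mTEClo was -0.17 with only 2 groups fitted. Pyy in mTEClo was -0.94 in limma-voom and -1.49 in replicates 1 and 2 only, and its difference of effects 1.03 and 1.73. Ghrl in mTEChi was 0.16 in replicates 1 and 2 only. With 1 library left out, Ins2 ran from -0.9 to 2.14 and Pyy from -2 to 1.12 in mTEClo. In mTEChi Ins2 ran from -0.13 to 0.29, Pyy from -0.08 to 0.26, Gast from -0.08 to 0.2 and Ghrl from -0.31 to 0.02. Between the cell types Ghrl ran from -0.09 to 0.43 in WT and Cck from -0.23 to 0.17 in cHyper. The differences of effects ran from -2.04 to 1 for Ins2 and from -1.02 to 2.1 for Pyy. The cause was not tested.

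Counts over all genes moved more. In mTEChi 572 genes were called between the genotypes, against 1455 in DESeq2, 1250 with the block, 1071 with 2 groups, 862 in limma-voom and 312 in replicates 1 and 2 only. The difference was called for 595, against 1425, 1186, 1103 with no filter and 284 in replicates 1 and 2 only. Library totals moved the median of all genes by 0.165 in cHyper and 0.215 in WT between the cell types. In mTEClo, depth limits Ins1, Ins2, Ppy, Pyy and Gast, with at most 33 fragments per group.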
